A study of Mus musculus with 8 samples.

Results

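The genes described here make, inactivate and sense prostaglandins in mouse kidney injured by ischemia-reperfusion, a period without blood flow that ends when the clamp is released. They were taken by symbol as a fixed list of 9 genes out of 25239 in the count table: the cyclooxygenase genes Ptgs1 and Ptgs2, the prostaglandin E synthase genes Ptges, Ptges2 and Ptges3, the prostaglandin D synthase gene Ptgds, the inactivating dehydrogenase gene Hpgd, and the PGE2 receptor genes Ptger1 and Ptger4. All 9 passed the filter on low counts, which left 15000 genes to be tested. The study asked what FoxO1 does in macrophages of the injured kidney. It has 4 control libraries with the genotype label WT and 4 libraries labelled myeloid-specific FoxO1-knockout, numbered 1 to 4 in each group. Knockout mice were Lyz2-CreERT2 FoxO1flox/flox, in which the promoter of Lyz2, a gene of myeloid cells, drives a Cre enzyme that tamoxifen activates, so the gene is meant to be lost only from the myeloid cells of the tissue. They were 8 to 10 weeks old at the time of tamoxifen (75 mg per kg, 5 days). The same protocol text is attached to the controls, and whether they carried Cre or floxed alleles or received tamoxifen is not given in the sources used here. Both groups had the right kidney removed and the left renal vessels clamped for 35 minutes, and no uninjured kidney was analysed here. Whether each library is a mouse of its own is not labelled, so p-values measure the spread between libraries, which may be technical.

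Prostaglandins are lipids made from arachidonic acid, which phospholipases release from membranes. Cyclooxygenases convert it to the unstable intermediate PGH2, and terminal synthases turn that into PGE2, PGD2, prostacyclin or thromboxane. Prostaglandins act on G-protein-coupled receptors close to where they are made, and are cleared by uptake through a transporter followed by oxidation. In the kidney they adjust blood flow, renin release and the handling of salt and water along the nephron.

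Libraries held 29044405 to 35530421 counts, with 16873 to 17285 genes detected. The targeted Foxo1 had 34.5, 33.4, 33.0 and 33.9 CPM (counts scaled to a common library size) in controls 1 to 4, against 41.4, 41.0, 42.9 and 39.3 CPM in knockouts 1 to 4 (log2 fold change 0.29, SE 0.09, adjusted p = 0.0647). It passed as higher with DESeq2 (0.0199) and with limma and sample quality weights (0.0453). Its level was not lower in the libraries labelled knockout, and counts over the whole gene in whole tissue are no check of a deletion in myeloid cells. Lyz2 had 81 counts in control 1 and 13 in knockout 3, against 844 to 1610 in the other libraries. The loop of Henle gene Umod had 70359 to 120589 counts in controls and 142487 to 207922 in knockouts, while of neighbouring tissues the adrenal genes Cyp11b1 and Cyp11b2 and the muscle genes Ckm and Myh4 were at 0 in all 8. The other listed adrenal and muscle genes had 0 to 18 counts, except Star with 87 to 167. Adipose markers, 0 of 4 past the threshold, summed to 133 CPM in control 2 and 104 CPM in knockout 2, against 2.68 to 51.6 CPM in the other libraries; their part in the results was not tested. These are bulk libraries of digested tissue, in which fewer cells of a type and less RNA per cell cannot be told apart.

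Of the 9 genes, Hpgd and Ptger1 rose in the knockout, 0 fell and 7 did not pass the threshold, an adjusted p under 0.05 in edgeR. Of all genes tested, 12.7% passed, 6.45% higher and 6.28% lower. An unadjusted p under 0.05 was reached by 5 of the 9, against 29.1% of all genes. Groups did not overlap for 2 of the 9 genes (the same Hpgd and Ptger1), against 21.7% of all genes tested. With 9 genes, such counts do not set the list apart from the rest of the table. The median log2 fold change (knockout over control) was 0.12 over the 9 genes and -0.01 over all genes tested, and the 9 values ran from -2.19 (Ptgs2) to 1.19 (Hpgd). The count of 2 was 0 without control 3 or without knockout 2, and 1 without control 4, without knockout 3, without knockout 4 or without control 1 and knockout 3 together. Without control 2, Ptgds passed as well. Without knockout 1, Ptges3 passed and Ptger1 did not.

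**Figure D1:**
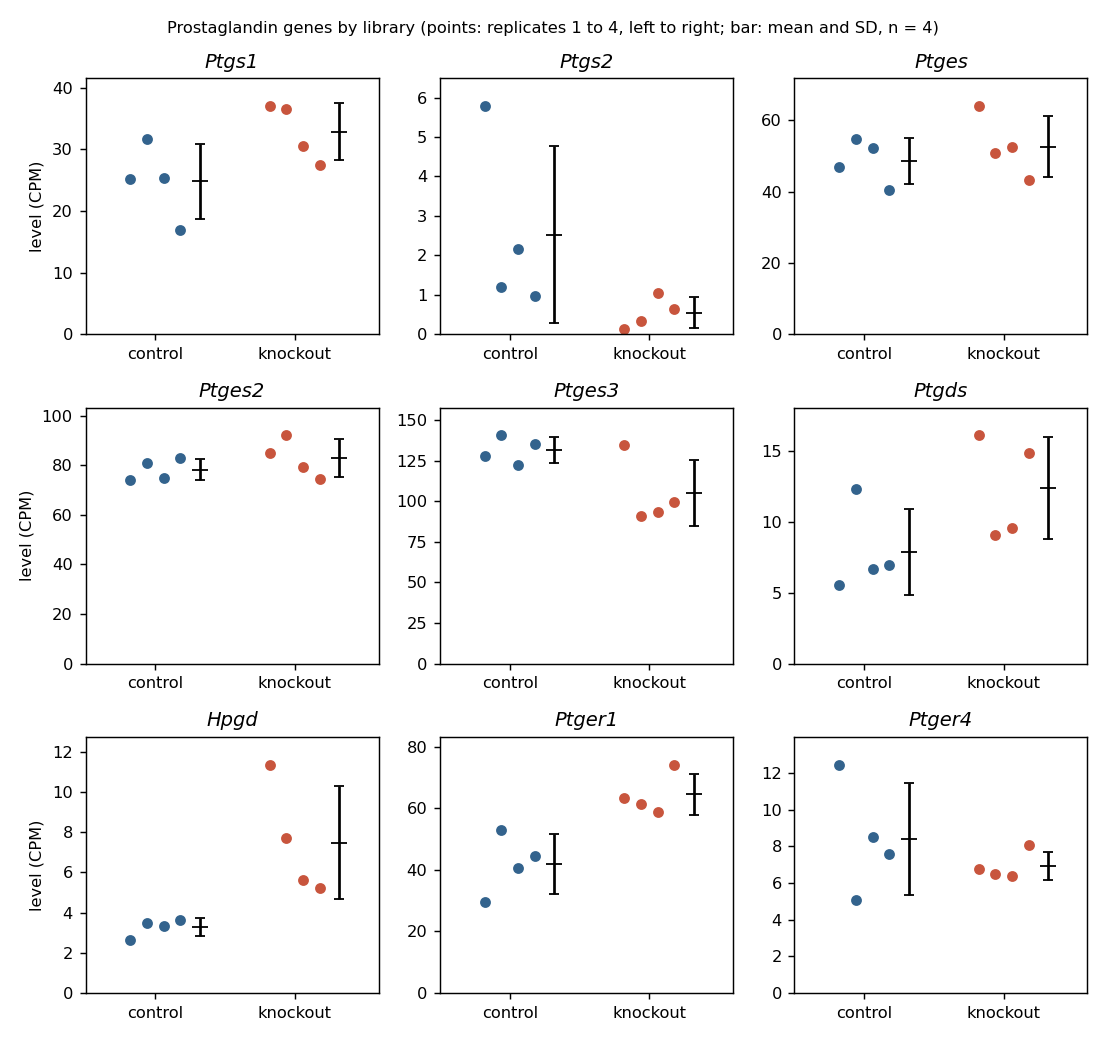
Levels of the 9 genes in CPM (y axes, each from 0) in the 4 control and 4 knockout libraries; points are libraries 1 to 4 from left to right, and the black mark and bar give mean and SD (n = 4). Hpgd and Ptger1 have all knockout points above all control points, and Ptgs2 has its highest point, 5.79 CPM, in control 1.

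Per length, the order of the genes was wide. In controls Ptges3 had the highest mean level at 67.3 ± 4.18 CPM per kilobase of the deposited gene length (SD, n = 4), followed by Ptges2 at 40.1 ± 2.21. Ptger1 (20.1 ± 4.65), Ptges (13.3 ± 1.74), Ptgds (9.78 ± 3.76) and Ptgs1 (8.65 ± 2.12) came next, and each of these overlapped its neighbour in that order. Ptger4 (2.53 ± 0.925) and Hpgd (1.90 ± 0.264) overlapped as well, and Ptgs2 was lowest at 0.567 ± 0.501. In knockouts Hpgd stood at 4.35 ± 1.64 CPM per kilobase, with all its libraries above those of Ptger4 at 2.08 ± 0.232. Ptgs2 remained lowest there at 0.123 ± 0.0878, and Ptges3 (53.6 ± 10.4) and Ptges2 (42.4 ± 3.92) remained highest.

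The cyclooxygenases come first in the pathway. Ptgs1 encodes the form that most tissues make steadily, and Ptgs2 the form that stress, cytokines and mitogens induce. Their start regions are shown because both genes encode the same enzyme step and differ in level, together with that of Hpgd, which rose. The sequences are those of RefSeq on GRCm38.p6, an older build than the mm39 named by the submitters, from 250 bases before to 50 bases after the annotated start, and 8 of the 9 genes had an entry. Capitals mark every match to a searched motif on either strand.
Ptgs1, chr2:36230176-36230475, plus strand: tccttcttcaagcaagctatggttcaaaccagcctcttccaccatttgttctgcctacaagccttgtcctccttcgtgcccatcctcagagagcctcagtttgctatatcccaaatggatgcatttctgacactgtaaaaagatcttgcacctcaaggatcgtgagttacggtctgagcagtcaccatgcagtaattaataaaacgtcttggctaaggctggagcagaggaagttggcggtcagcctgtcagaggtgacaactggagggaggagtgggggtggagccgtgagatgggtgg
Ptgs2, chr1:150099781-150100080, plus strand: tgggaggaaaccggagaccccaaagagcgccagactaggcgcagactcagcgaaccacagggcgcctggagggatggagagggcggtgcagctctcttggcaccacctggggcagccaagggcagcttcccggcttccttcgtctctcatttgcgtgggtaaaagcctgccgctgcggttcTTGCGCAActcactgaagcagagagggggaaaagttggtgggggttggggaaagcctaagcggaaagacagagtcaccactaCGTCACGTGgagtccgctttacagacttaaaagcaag
Hpgd, chr8:56294302-56294601, plus strand: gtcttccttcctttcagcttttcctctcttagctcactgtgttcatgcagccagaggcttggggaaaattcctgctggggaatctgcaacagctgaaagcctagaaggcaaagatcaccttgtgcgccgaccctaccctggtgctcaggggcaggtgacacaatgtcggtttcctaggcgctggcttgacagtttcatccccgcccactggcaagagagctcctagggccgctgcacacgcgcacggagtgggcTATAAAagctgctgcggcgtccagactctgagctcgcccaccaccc
The Ptgs2 window holds the C/EBP palindrome TTGCGCAA, which 0.183% of the 32851 windows in the table hold, at position -69 from the start. It also holds the E-box CACGTG (7.15% of windows) at position 16 and the cyclic AMP response half-site TGACG (20.8%) at position 13. Both lie after the annotated start. The half-site is here on the minus strand as CGTCA, and these matches overlap and form 1 capital run in the printed sequence. The Hpgd window holds the TATA box letters TATAAA (13.6% of windows) at position 4, also after the annotated start. In the Ptgs1 window none of the 7 searched motifs was found. Those 7 motifs were the 4 above, the AP-1 site TGANTCA (7.81% of windows), an NF-kB site spelled GGGA, any base, then TTTCC (0.411%), and the forkhead core GTAAACA, to which FoxO proteins can bind (3.65%). The forkhead letters were in none of the 8 windows, which says only that they are not in these 300 bases.

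Ptgs2 had the largest fold change of the 9 genes and did not pass the threshold. Its levels were 5.79, 1.19, 2.16 and 0.972 CPM in controls 1 to 4 (206, 38, 77 and 30 counts). In knockouts 1 to 4 they were 0.144, 0.347, 1.04 and 0.652 CPM (4, 12, 37 and 22 counts). Control 1 stood highest, and knockout 3 overlapped the lowest control, control 4. The log2 fold change was -2.19 (SE 0.69, 95% interval -3.72 to -0.65, edgeR unadjusted p = 0.00976, adjusted p = 0.0632). Without control 1 it was -1.38 (adjusted p = 0.174), and DESeq2 gave an adjusted p of 0.00773.

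Ptgs1 did not pass either. Its levels were 25.3, 31.7, 25.4 and 16.8 CPM in controls 1 to 4, against 37.1, 36.5, 30.5 and 27.5 CPM in knockouts 1 to 4. Control 2 lay above knockouts 3 and 4, so the groups overlapped. In the GENCODE annotation of GRCm38, 3.81% of its 3884 exon bases are shared with Gm43621 on the opposite strand. The deposited length of Ptgs1 is 2866 bases, so the share of the counted gene is not known. Its log2 fold change was 0.41 (SE 0.19, 95% interval -0.01 to 0.82, adjusted p = 0.181). Within each library, Ptgs2 per Ptgs1 (both per kilobase) was 0.0241 to 0.147 in controls and 0.00250 to 0.0220 in knockouts, so the ratios of the groups did not overlap although neither gene passed. As a share of both cyclooxygenases, Ptgs2 made up 12.8%, 2.36%, 5.18% and 3.57% in controls 1 to 4 and 0.249% to 2.15% in knockouts. This share restates the ratio, so its lack of overlap is not a separate result.

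**Figure D2:**
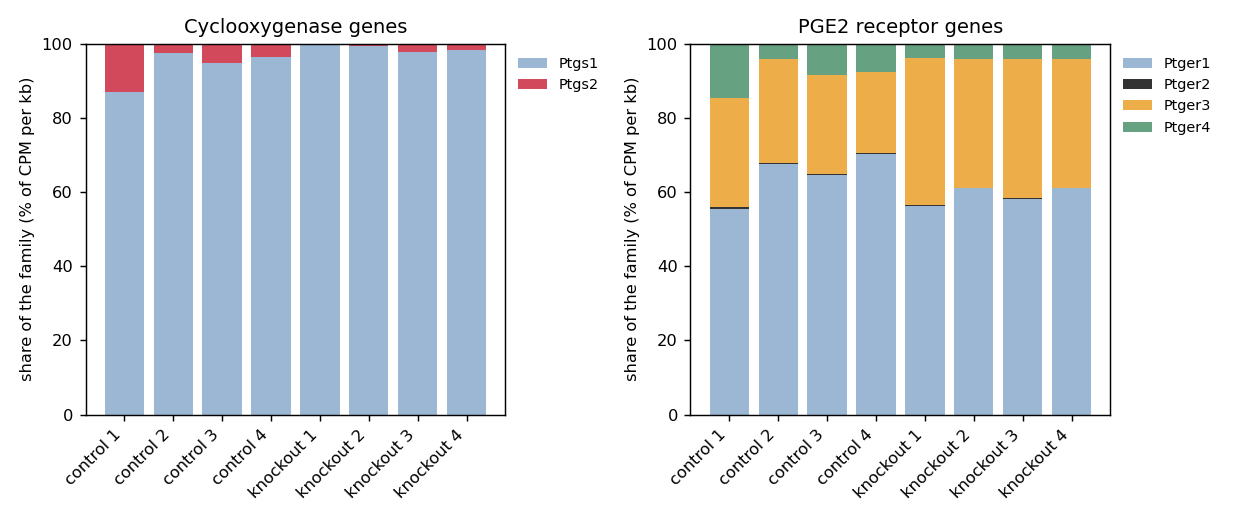
Share of each gene in the summed level of its family (y axis, % of CPM per kilobase) for the cyclooxygenases (left) and the PGE2 receptors (right), 1 stacked bar per library. Ptgs2 takes 12.8% in control 1 and at most 2.15% in the knockouts, and Ptger3 takes 34.7% to 39.7% in knockouts against 21.9% to 29.3% in controls.

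Other genes moved between the same libraries as Ptgs2. Of 18 immediate early and heat shock genes, which respond to stress and to tissue handling, 10 fell and 0 rose, and their summed level was 1348 to 1565 CPM in controls and 824 to 981 CPM in knockouts. Of 7 neutrophil markers tested, 6 fell, with sums of 27.7 to 178 CPM and 6.09 to 16.7 CPM over the 8 listed; control 1, highest in Ptgs2, was also highest in that sum (178 CPM, against 27.7 to 51.3 in the other controls). Of 11 injured tubule markers 9 fell (sums of 15154 to 29809 CPM and 5946 to 6919 CPM). Of 12 macrophage markers 2 fell (Cd14 and Itgam) and 1 rose (Mertk), and the median log2 fold change was 0.18. Their sums were 321 to 414 CPM in controls and 283 to 385 CPM in knockouts. Cd14 weighs on these sums, with means of 106 CPM in controls and 30.0 CPM in knockouts, so they do not stand for the list as a whole. The macula densa, the salt sensor of the nephron and a known site of Ptgs2, had 2 of 4 markers higher, Avpr1a and Pappa2. Sums over the 4 were 11.4 to 15.2 CPM in controls and 18.7 to 21.7 CPM in knockouts. The others did not pass in edgeR, Nos1 with a log2 fold change of 1.00 (adjusted p = 0.103) and Mcub, lower, with -0.91 (adjusted p = 0.0912). Each neutrophil, macrophage, injury, stress and macula densa marker had counts in at least 1 library. Their part in the Ptgs2 values was not tested.

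The terminal synthases for PGE2 showed small differences. Ptges encodes the microsomal form that is often induced with Ptgs2. It stood at 47.0, 54.7, 52.1 and 40.3 CPM in controls 1 to 4, against 64.0, 50.7, 52.5 and 43.1 CPM in knockouts 1 to 4, groups that overlapped (log2 fold change 0.12, 95% interval -0.21 to 0.44, adjusted p = 0.643). Per kilobase, Ptges was 1.36 to 1.88 times Ptgs1 in controls and 1.09 to 1.36 times in knockouts. These ranges were apart only in further digits (lowest control 1.35738, highest knockout 1.35731). All 6 ratios computed are given here, as descriptions without a test. Ptger1 per Ptger4 and Hpgd per Ptgs1 did not separate the groups, and Ptges per Ptgs1 did so only by that margin.

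Ptges2, a membrane-associated form, had the lowest coefficient of variation of the 9 genes in controls, 5.52%. Its levels were 74.2, 80.8, 74.9 and 82.9 CPM in controls 1 to 4, against 85.1, 92.1, 79.4 and 74.3 CPM in knockouts 1 to 4. The groups overlapped (log2 fold change 0.08, 95% interval -0.15 to 0.31, adjusted p = 0.650).

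Ptges3 encodes the cytosolic form, which is also p23, a partner of the chaperone HSP90, so its level need not follow prostaglandin synthesis. It stood at 128, 141, 122 and 135 CPM in controls 1 to 4, against 135, 91.1, 93.6 and 99.7 CPM in knockouts 1 to 4. Knockout 1 lay among the controls and the other knockouts lay below all of them. The log2 fold change was -0.33 (SE 0.14, 95% interval -0.64 to -0.02, adjusted p = 0.148), and without knockout 1 it was -0.47 (adjusted p = 0.0217). limma with sample quality weights gave an adjusted p of 0.0233. As a share of the 3 PGE synthases per kilobase, Ptges3 made up 55.8 ± 1.00% in controls and 48.3 ± 4.31% in knockouts (SD, n = 4).

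Ptgds, which encodes the lipocalin-type prostaglandin D synthase, varied within both groups. Its levels were 5.56, 12.3, 6.66 and 6.93 CPM in controls 1 to 4, against 16.1, 9.06, 9.53 and 14.8 CPM in knockouts 1 to 4. Control 2 lay above knockouts 2 and 3. The log2 fold change was 0.65 (SE 0.29, 95% interval 0.01 to 1.29, adjusted p = 0.165), and without control 2 it was 0.95 (adjusted p = 0.0365). Hpgds, the haematopoietic form of the same activity, had 226 counts in control 1 against 61 to 67 in the other controls and 23 to 67 in knockouts. It did not pass in edgeR (log2 fold change -1.31, SE 0.49, adjusted p = 0.108; -0.66 without control 1) and passed with DESeq2 (adjusted p = 0.0438). Of 7 mast cell markers, Fcer1a was at 0 in all 8 libraries, and Cpa3, Cma1, Mcpt4 and Tpsb2 had 0 to 8 counts. Ms4a2 had 0 to 6 counts in controls and 8 to 10 in knockouts, without overlap. Kit was the only one tested and rose (14.1 and 23.6 CPM on average, edgeR adjusted p = 0.00568). It had 447 to 862 counts, far more than the other listed mast cell markers. Whether the Kit counts came from mast cells was not tested.

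Hpgd encodes the dehydrogenase that takes prostaglandins out of action by oxidising their hydroxyl group. It rose from 2.61, 3.50, 3.31 and 3.63 CPM in controls 1 to 4 (93 to 118 counts) to 11.4, 7.73, 5.61 and 5.22 CPM in knockouts 1 to 4 (176 to 316 counts). Every knockout lay above every control, and knockout 1 was highest. The means were 3.26 ± 0.453 and 7.48 ± 2.82 CPM (SD, n = 4 each), 2.29-fold higher (log2 fold change 1.19, SE 0.28, 95% interval 0.58 to 1.81, edgeR adjusted p = 0.0212). Leaving out control 3 (adjusted p = 0.0544) or knockout 2 (adjusted p = 0.0551) ended the call; the log2 fold change ran from 0.92 to 1.33 over the 8 fits that left out 1 library.

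Slco2a1, the prostaglandin transporter that carries prostaglandins into cells for this oxidation, fell while Hpgd rose. It stood at 141, 85.8, 116 and 121 CPM in controls 1 to 4, against 71.7, 63.2, 63.8 and 64.0 CPM in knockouts 1 to 4, with no overlap. The log2 fold change was -0.82 (SE 0.15, edgeR adjusted p = 0.00755), and it passed in all 17 alternatives. Per kilobase, Hpgd per Slco2a1 was 0.0508 to 0.112 in controls and 0.223 to 0.434 in knockouts. Hpgd per Ptgs1 overlapped between the groups, at 0.172 to 0.359 and 0.306 to 0.512. Markers of the loop of Henle and the collecting duct were higher in the same knockout libraries: 5 of 7 loop markers (Ptger3 left out; sums of 2307 to 3998 CPM in controls and 6914 to 8029 CPM in knockouts) and 6 of 9 collecting duct markers (479 to 1363 CPM and 1637 to 2711 CPM), with 0 lower and no marker at 0. Podocyte markers were higher too, 4 of 6 with 0 lower (sums of 356 to 474 CPM and 534 to 588 CPM). Of 8 proximal tubule markers 2 were higher and 0 lower, with sums that overlapped (2476 to 7143 CPM and 5732 to 7934 CPM). The part of these markers in the Hpgd and receptor values was not tested.

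Among the PGE2 receptors, Ptger1 encodes EP1, which raises cell calcium and is known from the collecting duct. It rose from 29.5, 52.8, 40.7 and 44.4 CPM in controls 1 to 4 to 63.5, 61.4, 59.0 and 74.2 CPM in knockouts 1 to 4, with all knockouts above all controls. The means were 41.8 ± 9.67 and 64.5 ± 6.74 CPM (SD, n = 4 each), 1.54-fold higher (log2 fold change 0.62, SE 0.17, 95% interval 0.25 to 1.00, edgeR adjusted p = 0.0369). The call was lost without control 3, without control 4 or without any 1 of the 4 knockouts (adjusted p up to 0.108), and without control 1 and knockout 3 together (0.0599).

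Because strand was not kept by the library kit, transcription from the other strand cannot be told apart from a gene's own reads, for Ptger1 and the other genes alike.

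Ptger4 encodes EP4, which raises cyclic AMP and is widely expressed, also in macrophages. Its levels were 12.5, 5.07, 8.51 and 7.58 CPM in controls 1 to 4, against 6.77, 6.51, 6.37 and 8.06 CPM in knockouts 1 to 4. The controls ran both above and below the knockouts, and control 1 was highest. The log2 fold change was -0.28 (SE 0.26, 95% interval -0.85 to 0.29, adjusted p = 0.512); it was -0.027 without control 1 and 0.012 without control 1 and knockout 3 together. In the GENCODE annotation of GRCm38, antisense partners shared 15.3% (Gm15937) and 1.23% (Ttc33) of its 6648 exon bases. The deposited length of Ptger4 is 3327 bases, so the shares of the counted gene are not known. Per kilobase, Ptger1 per Ptger4 was 3.78 to 16.7 in controls and 14.7 to 15.1 in knockouts, which overlapped.

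The PGE2 receptors outside the list of 9 differed from each other. Ptger3, which encodes EP3, a receptor of the thick ascending limb and collecting duct that lowers cyclic AMP, rose from 16.3, 22.9, 17.6 and 14.5 CPM in controls 1 to 4 to 46.9, 36.8, 40.0 and 44.2 CPM in knockouts 1 to 4. It passed in all 17 alternatives (log2 fold change 1.24, SE 0.16, adjusted p = 0.00181). Ptger2, which encodes EP2, had 4 to 19 counts in controls and 2 to 10 in knockouts and was not tested. Per kilobase, Ptger3 per Ptger4 was 1.99 to 6.91 in controls and 8.37 to 10.6 in knockouts, without overlap. The sums of loop of Henle, collecting duct and podocyte markers given beside Hpgd separated the same libraries.

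Among receptors for other prostanoids, Ptgfr, the receptor for PGF2 alpha, rose from 20.2, 13.7, 18.7 and 9.59 CPM in controls 1 to 4 to 25.6, 33.8, 37.1 and 30.8 CPM in knockouts 1 to 4 (log2 fold change 1.03, SE 0.23, adjusted p = 0.0169). Tbxa2r, the thromboxane receptor, had a log2 fold change of 0.89 (SE 0.31, adjusted p = 0.0838), with control 2 at 9.29 CPM above knockout 2 at 8.54 CPM; it passed with DESeq2 (adjusted p = 0.0289) and without control 2 (0.0195). Ptgir, the prostacyclin receptor, was at 0.28 (95% interval -0.51 to 1.08, adjusted p = 0.647). The prostaglandin D receptor gene Ptgdr had 0 counts in all 8 libraries.

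**Figure D3:**
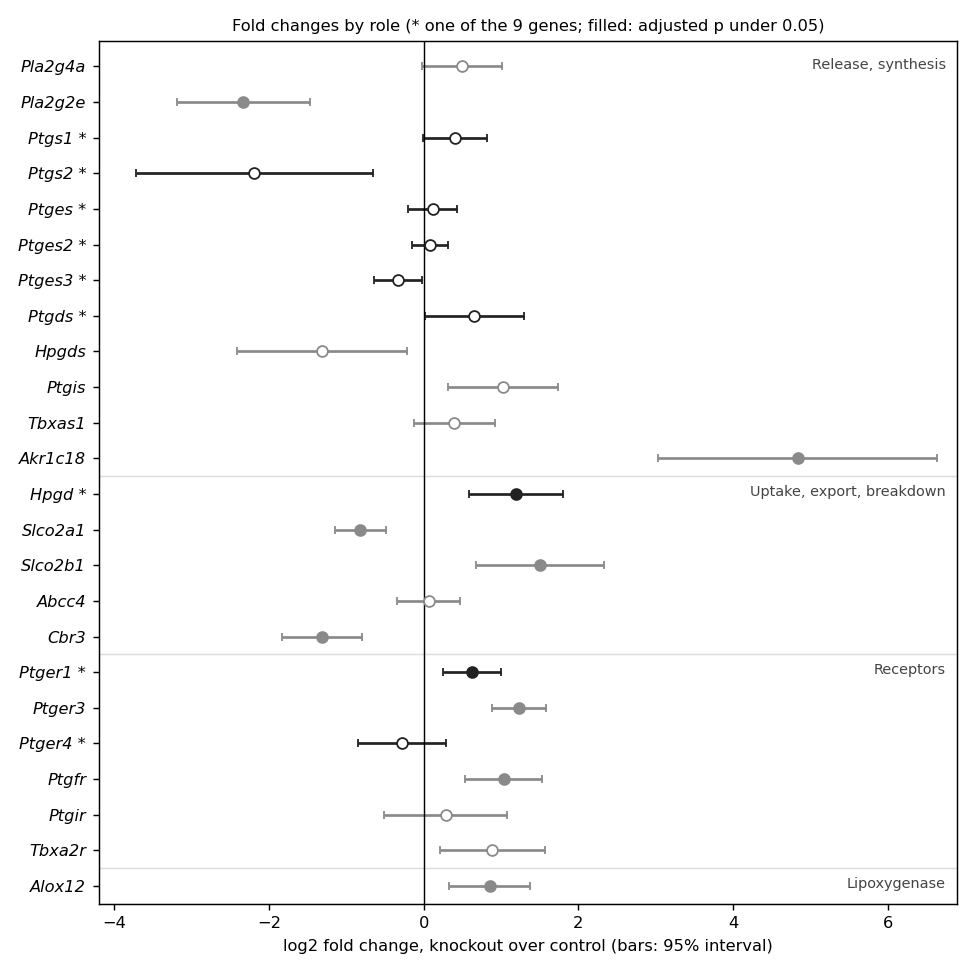
Log2 fold change of knockout over control (x axis, with 95% intervals) for the 9 genes (dark, with asterisk) and other named genes of the pathway (grey), grouped by role; filled points passed an adjusted p under 0.05. Hpgd at 1.19 and Ptger1 at 0.62 are the filled dark points, and the interval of Ptgs2 runs from -3.72 to -0.65.

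The other genes of the pathway were taken from 5 lists of 60 symbols, of which 58 were in the table and 40 passed the filter. Of the 40, 5 rose, 3 fell and 32 did not pass, a share to be read against the 12.7% of all genes; the median log2 fold change was 0.22. DESeq2 called 15 of them and the fit without control 2 called 14. Among phospholipases and annexin A1, 1 of 9 tested changed. Pla2g2e, a secreted phospholipase, fell from 3.09, 2.19, 1.88 and 1.46 CPM in controls 1 to 4 to 0.468, 0.319, 0.621 and 0.296 CPM in knockouts 1 to 4 (log2 fold change -2.33, SE 0.39, adjusted p = 0.00552). Pla2g4a, the cytosolic phospholipase that supplies arachidonic acid, had a log2 fold change of 0.50 (95% interval -0.02 to 1.01, adjusted p = 0.187), and passed with limma and sample quality weights (0.0458) and without control 1 (0.0392).

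Among the other prostanoid synthases, 1 of 7 tested changed. This was Akr1c18, an aldo-keto reductase best known for inactivating progesterone, which rose. It had 0.731, 16.8, 5.59 and 3.60 CPM in controls 1 to 4, against 331, 73.0, 155 and 201 CPM in knockouts 1 to 4, without overlap (log2 fold change 4.83, SE 0.81, adjusted p = 0.00571). That value was 5.84 without control 2. Its close paralogs may share reads with it. Ptgis, the prostacyclin synthase gene, had no overlap between groups, at 2.56, 4.54, 1.68 and 3.92 CPM in controls 1 to 4, against 8.06, 4.95, 5.64 and 7.23 CPM in knockouts 1 to 4. It did not pass (log2 fold change 1.03, SE 0.32, adjusted p = 0.0600), and it passed in DESeq2 (0.0128), limma with sample quality weights (0.0468) and without control 2 (0.0361). Tbxas1, the thromboxane synthase gene, was at 0.40 (95% interval -0.13 to 0.92, adjusted p = 0.298). Interstitial fibroblast markers, 0 of 9 past the threshold, summed to 214 to 632 CPM in controls and 505 to 814 CPM in knockouts; endothelial markers, 3 of 9 higher and 0 lower, summed to 249 to 633 CPM and 652 to 774 CPM. Their part in the Ptgis and Ptgds values was not tested.

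For breakdown and transport, 3 of 8 tested changed, among them Slco2a1. Slco2b1, an organic anion transporter, rose from 4.81, 11.3, 3.93 and 13.1 CPM in controls 1 to 4 to 22.5, 16.6, 29.9 and 25.0 CPM in knockouts 1 to 4 (log2 fold change 1.51, SE 0.37, adjusted p = 0.0269). It lost the call without control 3 (0.0541), knockout 3 (0.0732), knockout 4 (0.0733), or control 1 and knockout 3 together (0.102). Cbr3, a carbonyl reductase, fell from a range of 24.4 to 37.2 CPM over controls to one of 9.03 to 19.0 CPM over knockouts (log2 fold change -1.32, SE 0.23, adjusted p = 0.00712). Abcc4, an exporter of prostaglandins, had a log2 fold change of 0.06 (95% interval -0.35 to 0.47, adjusted p = 0.855).

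How the 9 genes varied from library to library within a group differed as well. In controls the coefficient of variation of the CPM ran from 5.52% (Ptges2) and 6.20% (Ptges3) to 88.4% (Ptgs2), and in knockouts from 9.25% (Ptges2) to 71.6% (Ptgs2). Over the deviations of 8 libraries from their group means (log2 CPM), Ptgs2 and Hpgd had a Pearson correlation of -0.87 and Ptges and Ptgs1 one of 0.82, the strongest negative and positive values among the 9 genes. The points share libraries and depth, and the values are a description. By the same measure the genes most like Hpgd were 9330020H09Rik, Sec22b and Rpl36al (r = 0.996, 0.992 and 0.989), and those most like Ptger1 were Igflr1, Ankrd45 and Kmt5c (r = 0.990, 0.984 and 0.972), the highest values among genes whose mean log2 CPM reached 1. Of these 6 genes Sec22b fell (log2 fold change -0.43, adjusted p = 0.0213) and Ankrd45 rose (1.09, adjusted p = 0.0340). These calls were lost in 5 and 6 of the 8 fits with 1 library removed, and without control 1 and knockout 3 together.

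**Figure D4:**
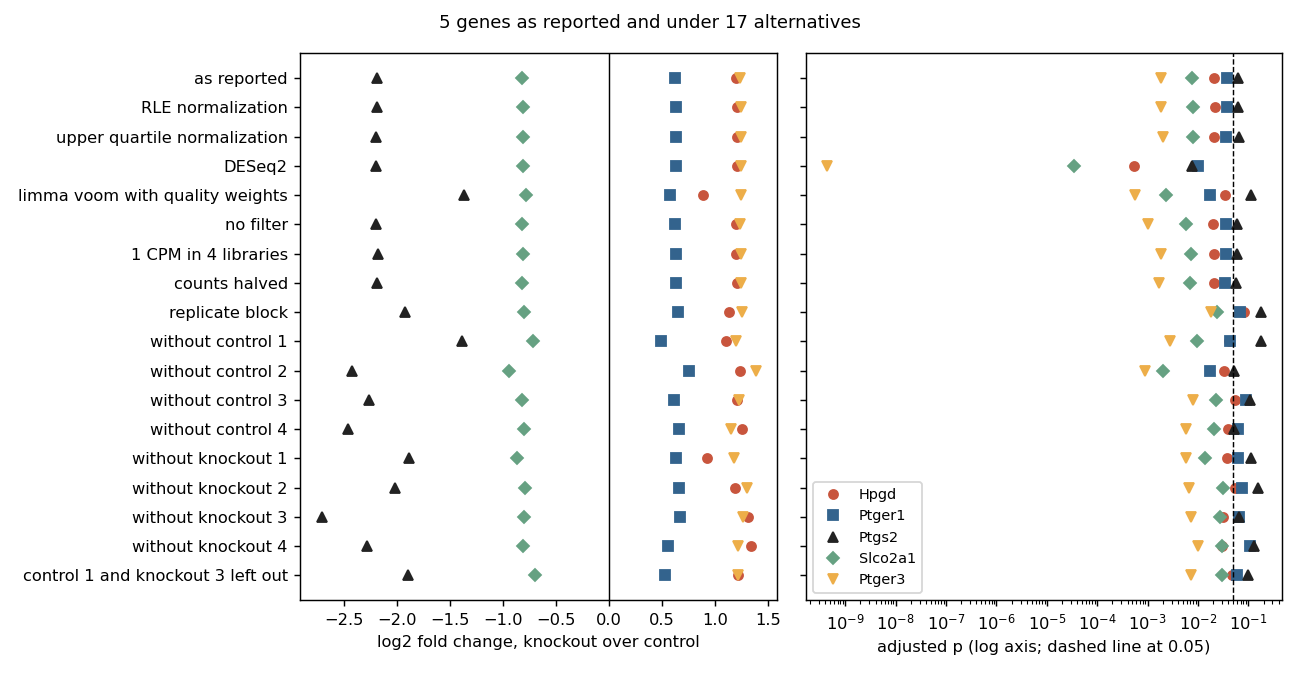
Log2 fold change (left) and adjusted p (right, log axis, dashed line at 0.05) of 5 genes as reported and under 17 other settings, 1 row each. Ptger3 and Slco2a1 stay left of the dashed line in every row, Hpgd crosses it in 3 rows and Ptger1 in 8, and Ptgs2 lies left of it only with DESeq2 (0.00773).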

How the data were processed

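RNA-seq of 8 kidney libraries was used as 1 table of counts per gene that the authors deposited, whole numbers with no normalization, beside a gene length in bases. Per the submitters' processing notes, the build was mm39 and the tools were HISAT2 2.2.1, Salmon 1.10.2, Trim Galore 0.6.2 and FastQC; which produced the counts is not given in the sources used here. Small counts were mostly even (68.7% to 70.9% of values from 1 to 20); whether mates of a pair were counted singly is not given, and halved counts were one alternative. Genes were matched by symbol; the identifier column was not used.

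Counts were tested with edgeR 4.0.16 (R 4.3.3) after filterByExpr on the groups (minimum count 10), with TMM, glmQLFit and glmQLFTest of 4 knockouts against 4 controls, and Benjamini-Hochberg adjustment over 15000 genes. The procedure was tested on simulated data with the same dispersion (spread between libraries) set for every gene, which does not cover genes as variable as Ptgs2. CPM use the TMM library sizes; log2 CPM used a prior count of 2. Alternatives were RLE and upper quartile scaling, DESeq2 1.42.0, limma 3.58.1 voom with sample quality weights, other filters, halved counts, a replicate block and leaving out libraries. The members, marker lists and settings were chosen with earlier results of these data known. Named were the 9 members, 12 pathway genes picked by role, up to 3 further called genes per pathway list, the 3 genes most like each called member, Foxo1 and Lyz2; other genes were named after their values were seen. One item is not reported here.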

Additional observations from a re-analysis of the deposited data

Results flagged for a closer look

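Single libraries that stood apart from the other 3 of their group were looked for in 64 groups of 4, a screen in which chance marks about 5% of groups; 3 were found. Hpgds, the haematopoietic prostaglandin D synthase gene, stood at 6.35 CPM in control 1 against 1.88 to 2.01 CPM in the other controls. Slco2a1, the prostaglandin transporter gene, stood at 71.7 CPM in knockout 1 against 63.2 to 64.0 CPM in the other knockouts, below the lowest control at 85.8 CPM. 9330020H09Rik, named for its likeness to Hpgd, stood at 1.97 CPM in control 1 against 2.33 to 2.40 CPM in the other controls.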

How the results depend on the processing

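Over all genes 1909 were called. The count was 2996 with DESeq2, 865 with the replicate block, 1045 without control 1 and knockout 3 together, and 907 to 1984 when 1 library was left out (1058, 1050, 1139 and 907 without control 3 and knockouts 2, 3 and 4, each alone). Of the 9 members 2 were called; the count was 0 with the replicate block, 1 without control 1 and knockout 3 together, and 0 to 3 when 1 library was left out. Of the other pathway genes 8 were called, 15 with DESeq2 and 6 to 14 when 1 library was left out. The replicate numbers are not stated to pair animals: same-numbered libraries had deviations correlated at -0.29, 0.06, 0.26 and -0.28, and the libraries did not all match their own number best. With the replicate block, the adjusted p was 0.0811 for Hpgd, 0.0667 for Ptger1, 0.0647 for Slco2b1, 0.0580 for Alox12, 0.0833 for Sec22b and 0.0773 for Ankrd45, so none of these 6 calls held in that fit. Directions turned for 4 named genes, none of them called: Igflr1 (reported at -0.04) was at 0.089 with the replicate block and -0.30 to 0.28 when 1 library was left out, Abcc4 (0.06) at -0.10 to 0.15 and Lyz2 (-0.18) at -0.69 to 0.26 when 1 library was left out, and Ptger4 (-0.28) at 0.012 without control 1 and knockout 3 together. Slco2a1, Ptger3, Ptgfr, Pla2g2e, Akr1c18 and Cbr3 passed in all 17 alternatives. The cause of these changes was not tested. Fits with fewer libraries have fewer degrees of freedom, and the fit without control 2 called 1984 genes, more than the 1909 reported. Counts of Ptgs2 in knockouts (4 to 37) limit its precision.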

Other observations

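The lipoxygenase arm of the same arachidonic acid pathway was measured by 11 tested genes of 16 listed. Of these 1 rose, 0 fell and 10 did not pass in edgeR, where 12.7% of all genes tested passed. An unadjusted p under 0.05 in edgeR was reached by 4 of the 11, against 29.1% of all genes tested. Such counts do not set these genes apart from the rest. Alox12, which encodes a lipoxygenase of platelets and epithelia, rose from 4.92, 5.41, 2.84 and 5.54 CPM in controls 1 to 4 to 8.53, 8.66, 7.14 and 9.48 CPM in knockouts 1 to 4 (log2 fold change 0.85, SE 0.23, adjusted p = 0.0399). Of 8 fits with 1 library removed, only the one without control 2 kept the call, and removing control 1 with knockout 3 gave an adjusted p of 0.0778. Alox5, the leukotriene-forming lipoxygenase gene of leukocytes, named after its values were seen, had 92 counts in control 1, 18 to 30 in the other controls and 5 to 27 in knockouts. Its log2 fold change of -1.49 did not pass (adjusted p = 0.147).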
